A study of Mus musculus with 4 samples.

Results

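Guanylate-binding proteins (GBPs) and immunity-related GTPases (IRGs) are described here through 10 mouse genes, namely Gbp2b (also called Gbp1), Gbp2, Gbp3, Gbp6, Gbp7, Gbp8, Iigp1, Irgm1, Irgm2 and Igtp. They were found by gene symbol or synonym in the annotation of the array and were measured by 14 probe sets, out of 18193 genes and 45037 probe sets in all. The genes were listed with their values on these arrays known, so their levels and differences are descriptions, and no test was run on them.

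Colonic epithelial cells came from C57BL/6 mice aged 6 to 8 weeks in 4 genotypes: Bmi1ΔIEC, Mel18ΔIEC, the double knockout carrying both (Bmi1ΔIEC Mel18ΔIEC), and wild type. Bmi1 and Mel18 (gene symbol Pcgf2) are related subunits of Polycomb repressive complex 1, which silences genes through chromatin. All 4 groups, wild type included, were given the colon carcinogen azoxymethane (10 mg/kg), waited 5 days, then drank 3.5% dextran sulfate sodium for 5 days, and cells were shaken from the opened colon in 5 mM EDTA on day 12 of this colitis-associated cancer model. One array was hybridised per genotype, and neither the Cre driver nor the number of mice behind an array is given in the sources used here. With 1 array a group there is no replicate check, so no error or p-value accompanies any value, and precision is limited by there being so few arrays.

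GBPs are large GTPases that interferon induces in epithelial cells and macrophages, where they coat bacteria and the vacuoles of intracellular parasites and open the way to caspase-driven inflammasomes. IRGs are smaller GTPases that act on the same vacuoles in mice. Effector IRGs such as Iigp1 (Irga6) load onto a vacuole and break it, while the regulatory IRGM proteins, encoded by Irgm1, Irgm2 and Igtp (Irgm3), sit on the cell's own membranes and keep effectors and GBPs off them. Interferon gamma switches these genes on through short promoter elements, among them GAS elements and the interferon-stimulated response elements (ISREs) that IRF1 binds. Gbp2b was among the first mouse GBPs described, and its induction by interferon was found to differ between inbred mouse strains.

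RefSeq (GRCm38.p6, the C57BL/6J assembly) gave a promoter for 7 of the 10 genes, running from 250 bases before a transcription start to 50 after it. The promoters of Gbp2b and Gbp2 are shown whole because these genes lie side by side yet behaved differently on the arrays, with capitals marking the letters TTTCNNTTTC, the ISRE core on one strand.
Gbp2b (chr3:142594597-142594896, + strand): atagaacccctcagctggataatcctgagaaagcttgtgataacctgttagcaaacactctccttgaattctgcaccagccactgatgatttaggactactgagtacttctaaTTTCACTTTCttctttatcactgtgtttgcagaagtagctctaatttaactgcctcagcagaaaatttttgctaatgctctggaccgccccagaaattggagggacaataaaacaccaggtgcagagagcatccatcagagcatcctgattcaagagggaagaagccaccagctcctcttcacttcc
Gbp2 (chr3:142620413-142620712, + strand): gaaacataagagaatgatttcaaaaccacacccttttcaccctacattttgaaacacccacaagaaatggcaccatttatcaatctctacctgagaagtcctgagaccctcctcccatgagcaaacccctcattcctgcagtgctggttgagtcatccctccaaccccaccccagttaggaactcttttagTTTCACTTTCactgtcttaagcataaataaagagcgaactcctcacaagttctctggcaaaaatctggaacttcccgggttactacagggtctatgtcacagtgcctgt
Both hold the same 10 letters, at 127 bases before the start in Gbp2b and 49 bases before it in Gbp2. For the other 5 genes the stretch around the match is shown, with 20 bases on each side and the same core, or GAAANNGAAA on the opposite strand, in capitals.
Gbp3 (chr3:142559979-142560034, + strand): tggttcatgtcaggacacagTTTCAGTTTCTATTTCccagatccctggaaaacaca
Gbp7 (chr3:142530263-142530312, + strand): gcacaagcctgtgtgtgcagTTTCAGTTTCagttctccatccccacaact
Irgm1 (chr11:48871415-48871470, - strand): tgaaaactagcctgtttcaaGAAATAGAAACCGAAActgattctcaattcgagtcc
Irgm2 (chr11:58214893-58214942, + strand): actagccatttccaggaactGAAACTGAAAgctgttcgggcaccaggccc
Igtp (chr11:58199502-58199551, + strand): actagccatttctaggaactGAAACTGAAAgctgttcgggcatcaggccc
In Gbp3 and in Irgm1 the capitals join 2 overlapping matches. The ISRE core, searched on both strands, lay in at least 1 promoter of all 7 genes and in 3.44% of the 32851 mouse promoters of this length. Gbp3 has a further start in the table whose promoter held no match. The GAS core TTCNNNGAA, which reads the same on both strands, lay in the promoters of Gbp7 (2 matches), Irgm2 and Igtp, none of them overlapping an ISRE match, and in 8.30% of all promoters. Irgm2 and Igtp share an identical run of 61 bases in their promoters, against at most 13 bases between any other pair of the member promoters compared. A match of letters is a description and says nothing of binding.

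Values are the deposited RMA intensities, and differences between arrays are on the log2 scale. For a gene with several probe sets, the one with the highest mean log2 value stands for it. A gene counts as higher or lower by the size rule where the difference was 2-fold or more and the brighter array was at or above a floor of 33.4 intensity units, the median of all probe-set values. Median intensities for Bmi1-labelled, Mel18-labelled, double-knockout-labelled and wild type were 32.1, 32.9, 34.1 and 34.2 units. On the Bmi1-labelled array the Bmi1 transcript read 334 and 339 units by its 2 probe sets. It read 432 and 399 units on the double-knockout-labelled array and 160 and 135 on the Mel18-labelled one, against 116 and 88.4 units in wild type. The brighter Pcgf2 probe set read 33.4, 39.8 and 32.0 units on the Bmi1-, Mel18- and double-knockout-labelled arrays and 30.2 units in wild type. Its highest value was thus the Mel18-labelled one, but all lie close to the floor and cannot check the Mel18 label. The Bmi1 values go against the labels, the exons deleted are not given in the sources used here, and arrays are therefore named by label. The 2 single-knockout-labelled arrays were the closest pair, with 164 genes past the size rule, and the other pairs had between 512 and 1468. All 12 epithelial markers examined (among them Epcam, Cdh1, Vil1 and Krt8) lay above the floor on every array, with a summed intensity of 76816, 81238 and 91993 units on the Bmi1-, Mel18- and double-knockout-labelled arrays and 89544 units in wild type.

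Gbp2b was bright on 2 arrays and under the floor on the other 2. It read 14.4 units on the Bmi1-labelled array, 24.3 units on the Mel18-labelled array and 2787 units on the double-knockout-labelled array, against 1866 units on the wild-type array. Both single-knockout-labelled arrays were low and the double-knockout-labelled array was the highest of the 4. Because the low values lie under the floor, the differences are best given as bounds against it. On each single-knockout-labelled array Gbp2b was at least 56.0-fold lower than in wild type, while on the double-knockout-labelled array it was at least 83.5-fold higher than on either single-knockout-labelled array. As measured, the log2 difference from wild type was -7.02 on the Bmi1-labelled array and -6.26 on the Mel18-labelled array, the lowest of 11934 and of 11862 genes tested. The double-knockout-labelled array differed from wild type by 0.58, which is 1.49-fold and does not pass the size rule. Gbp2b has 1 probe set, so no second probe set checks this pattern.

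No sort of the cells is stated, and in such a preparation fewer cells of a type and less RNA per cell cannot be told apart. The 5 neutrophil markers measured summed to 116, 226 and 1770 units on the Bmi1-, Mel18- and double-knockout-labelled arrays and 1819 units in wild type. None of the 5 reached the floor on the Bmi1-labelled array, and 4 did on each of the others. S100a8 and S100a9 were by far the brightest of the 5 in wild type, at 935 and 762 units. Csf3r differed from wild type by -0.999, -0.86 and 0.47 on the Bmi1-, Mel18- and double-knockout-labelled arrays, and Mmp9 by -0.76, -0.34 and 0.70. Neither passed the size rule there, and Cxcr2 lay under the floor on every array. The neutrophil sum was low on the same arrays as Gbp2b, and the part of neutrophils in the Gbp2b differences was not tested.

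**Figure D1:**
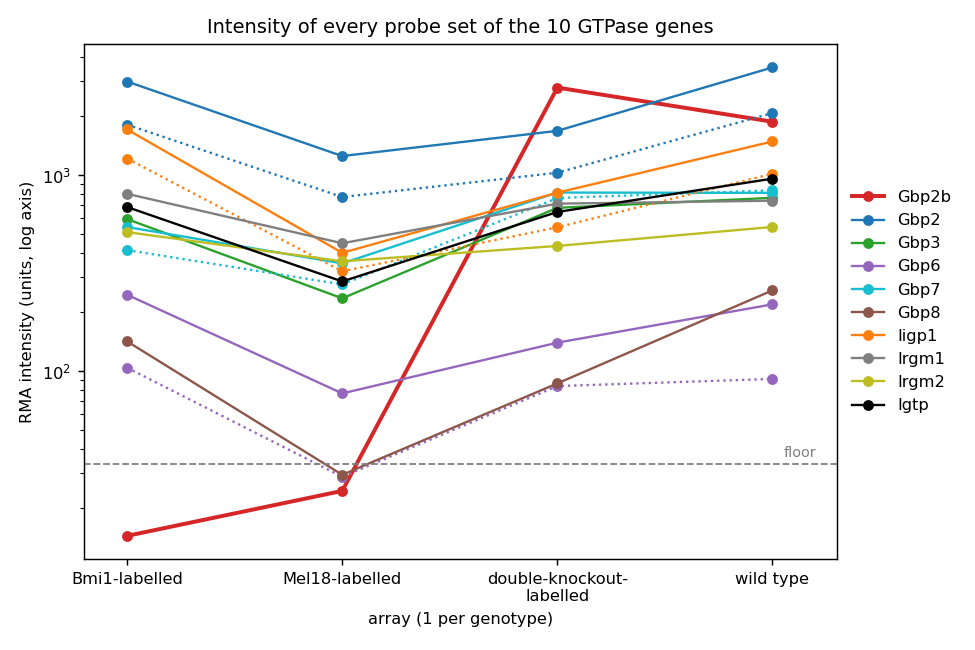
RMA intensity (log axis) of the 14 probe sets of the 10 genes on the 4 arrays, 1 line per probe set, with dotted lines for second probe sets of a gene and a dashed line at the floor of 33.4 units. Gbp2b (thick red) is at 14.4 and 24.3 units on the single-knockout-labelled arrays and at 2787 and 1866 units on the double-knockout-labelled and wild-type arrays, while the other 13 probe sets dip on the Mel18-labelled array.

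None of the neighbours of Gbp2b had differences of its size. In the gene table Gbp2 follows Gbp2b directly, and Gbp3 and Gbp7 precede it with 1 unmeasured noncoding gene between. Gbp2, a GBP that mouse cells load onto Toxoplasma vacuoles, read 2993, 1246 and 1676 units on the Bmi1-, Mel18- and double-knockout-labelled arrays and 3534 units on the wild-type array. Its lowest value was the Mel18-labelled one. On the Bmi1-labelled array, where Gbp2b was under the floor, Gbp2 stood at a log2 difference of -0.24 from wild type. Its second probe set gave -0.20, -1.42 and -1.01 on the Bmi1-, Mel18- and double-knockout-labelled arrays, close to the -0.24, -1.50 and -1.08 of the first. Gbp3 read 594, 234 and 678 units on the Bmi1-, Mel18- and double-knockout-labelled arrays and 763 units on the wild-type array, with the Mel18-labelled array alone far below the rest. Gbp7, another GBP of this cluster, read 541, 353 and 812 units on the Bmi1-, Mel18- and double-knockout-labelled arrays and 809 units in wild type by its brighter probe set. Here the double-knockout-labelled and wild-type arrays were level and both single-knockout-labelled arrays lower. The second Gbp7 probe set gave -1.01 on the Bmi1-labelled array, just past the 2-fold line, where the first gave -0.58, so the call for Gbp7 on that array depends on the probe set.

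Gbp6 and Gbp8 belong to the second mouse GBP cluster, whose genes are close copies of each other, and a probe set may read more than 1 of them. Gbp8 had the widest range of the 9 genes other than Gbp2b, at 141, 29.4 and 86.1 units on the Bmi1-, Mel18- and double-knockout-labelled arrays and 257 units on the wild-type array. All 3 knockout arrays lay below wild type, and the Mel18-labelled value was under the floor. A further probe set, annotated to Gbp8 together with another gene, lay between 26.6 and 29.6 units on all arrays and was left out. Gbp6 read 244, 76.6 and 139 units on the Bmi1-, Mel18- and double-knockout-labelled arrays and 218 units in wild type, and its dimmer probe set read 104, 28.7 and 83.5 units there against 90.8 units in wild type. As deposited, both Gbp6 probe sets were highest on the Bmi1-labelled array and lowest on the Mel18-labelled one.

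Iigp1, the effector IRG of the set, read 1703, 400 and 811 units on the Bmi1-, Mel18- and double-knockout-labelled arrays and 1480 units on the wild-type array. The Mel18-labelled array was lowest at a log2 difference of -1.89 from wild type, and the second probe set gave -1.65. Among the regulatory IRGMs, Igtp read 685, 286 and 646 units on the Bmi1-, Mel18- and double-knockout-labelled arrays and 956 units in wild type. Its difference on the Mel18-labelled array, -1.74, was like those of Gbp2 and Gbp3. Irgm1, which also takes part in autophagy of mycobacteria, read 800, 447 and 712 units on the Bmi1-, Mel18- and double-knockout-labelled arrays and 738 units in wild type. Irgm2 had the smallest range of the 10 genes, at 510, 362 and 433 units on the Bmi1-, Mel18- and double-knockout-labelled arrays and 542 units in wild type. The 4 arrays of Irgm2 spanned 0.58 on the log2 scale and those of Irgm1 0.84, against 1.20 to 3.13 for the 7 others outside Gbp2b.

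On the Mel18-labelled array 8 of the 10 genes were lower than wild type by the size rule and none higher, where 2.50% of 11862 genes tested were lower and 3.15% higher. The 2 that did not pass were Irgm1 at -0.72 and Irgm2 at -0.58. Without Gbp2b the median difference was -1.51, against 0.07 over all genes tested, and the range ran from -3.13 for Gbp8 to -0.58 for Irgm2. On the Bmi1-labelled array 1 of the 10, Gbp2b, was lower, where 2.86% of 11934 genes were lower and 5.76% higher. Centring the arrays on genes at or above the floor made it 2, with Gbp8 at -1.08, and the second Gbp7 probe set passed at -1.01. The other 9 had a median of -0.24 and lay between -0.87 for Gbp8 and 0.20 for Iigp1, against 0.13 over all genes. On the double-knockout-labelled array 2 of the 10 were lower, Gbp8 at -1.58 and Gbp2 at -1.08, where 2.19% of 11853 genes were lower and 2.13% higher. The other 9 had a median of -0.57 there, against -0.01 over all genes. A 1.5-fold rule counted 2, 9 and 4 of the 10 genes as lower on the Bmi1-, Mel18- and double-knockout-labelled arrays, where 7.53%, 6.28% and 6.56% of genes were lower. These 3 comparisons share the wild-type array. Since they describe genes chosen with these values known, the shares of all genes stand beside the counts as background only.

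Markers of other cells also differed between arrays. The 10 markers of T and NK cells summed to 668, 511 and 1859 units on the Bmi1-, Mel18- and double-knockout-labelled arrays and 937 units in wild type, with 8, 7 and 9 of them at or above the floor on those arrays and 9 in wild type. This sum was lowest on the Mel18-labelled array. The 13 markers of macrophages and dendritic cells summed to 2703, 2460 and 4097 units on the Bmi1-, Mel18- and double-knockout-labelled arrays and 3973 units in wild type, with 9, 11 and 12 at or above the floor and 12 in wild type. Cd14, the brightest of the 13 on the Bmi1-labelled array, sets the order of the single-knockout-labelled arrays, since without it the sums were 1154 and 1704 units there, 3375 units on the double-knockout-labelled array and 2774 units in wild type. Fibroblast markers summed to 1254, 3387 and 5080 units on the Bmi1-, Mel18- and double-knockout-labelled arrays and 3207 units in wild type. B and plasma cell markers summed to 984, 914 and 1907 units on the knockout arrays in the same order and 1045 units in wild type. Endothelial markers, at most 2 of 6 at or above the floor, summed to 192, 161 and 198 units there and 180 units in wild type. Thus the T and NK, B and plasma cell, endothelial and full macrophage sums were lowest on the Mel18-labelled array. The 9 GTPase genes other than Gbp2b were also lowest there. On the double-knockout-labelled array all of these sums were above wild type, whereas the 9 genes had a median log2 difference of -0.57. The macrophage sum without Cd14, the neutrophil sum and the fibroblast sum were lowest on the Bmi1-labelled array. Of 8 T and NK markers tested between these 2 arrays, 5 were lower and 3 higher on the Mel18-labelled one. No marker of any cell type read 0. The part of these cells in the low values of the GTPase genes was not tested.

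**Figure D2:**
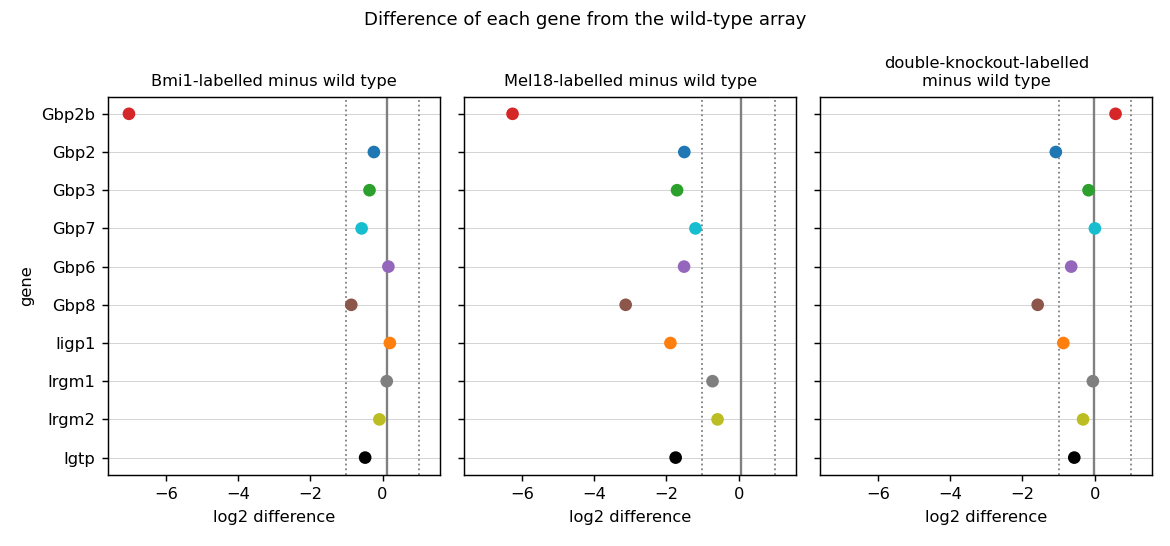
Log2 difference of each of the 10 genes from wild type, for the Bmi1-labelled (left), Mel18-labelled (middle) and double-knockout-labelled (right) arrays, with dotted lines at the 2-fold rule and a solid line at the median of all genes tested. Gbp2b lies at -7.02, -6.26 and 0.58, and the other 9 genes lie between -3.13 and -0.58 on the Mel18-labelled array.

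Set against its own family, Gbp2b departed downward on both single-knockout-labelled arrays and upward on the double-knockout-labelled array. Its log2 difference from wild type minus the median of the other 9 genes was -6.78 on the Bmi1-labelled array (-7.02 against -0.24), -4.75 on the Mel18-labelled array (-6.26 against -1.51) and 1.14 on the double-knockout-labelled array (0.58 against -0.57). Gbp2b was higher on the double-knockout-labelled array than on wild type while Gbp2, the adjacent gene, lay there at -1.08. The 9 other genes all had their lowest value on the Mel18-labelled array, whereas Gbp2b had its lowest value on the Bmi1-labelled array, although both of its low values lie under the floor and have no order. Of those 9 genes, 5 had their highest value in wild type, 3 on the Bmi1-labelled array and 1 (Gbp7) on the double-knockout-labelled array. For Gbp7 this was a near tie with wild type, at 812 and 809 units, and its second probe set was highest in wild type. The 3 were Gbp6, Iigp1 and Irgm1. With arrays centred on genes at or above the floor, they lay just below wild type on the Bmi1-labelled array, at -0.05, -0.01 and -0.10.

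The Mel18-labelled and Bmi1-labelled arrays, close to each other over the whole table, were apart in this family. In the Mel18-labelled minus Bmi1-labelled comparison 6 of the 9 genes other than Gbp2b were lower by the size rule, where 0.882% of 11681 genes were lower and 0.522% higher, and their median was -1.26 against -0.05 over all genes. The 6 were Gbp8 at -2.26 (-2.08 with its Mel18-labelled value raised to the floor), Iigp1 at -2.09, Gbp6 at -1.67, Gbp3 at -1.34, Gbp2 at -1.26 and Igtp at -1.26. Gbp7 at -0.62, Irgm1 at -0.84 and Irgm2 at -0.50 did not pass. Gbp2b was under the floor on both arrays and was not compared.

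The design allows each knockout label to be read against wild type and on top of the other knockout label, in comparisons that share no array. With the Mel18 label added, the 9 genes had a median of -0.23 in the double-knockout-labelled minus Bmi1-labelled comparison, with Iigp1 at -1.07 the only one past the size rule in either direction, where 7.96% of genes were lower. In the Mel18-labelled minus wild-type comparison their median was -1.51 and 7 of 9 were lower. Gbp3 and Gbp7 lay at 0.19 and 0.58 in the first of these comparisons and at -1.70 and -1.20 against wild type. With the Bmi1 label added, all 9 genes were above 0 in the double-knockout-labelled minus Mel18-labelled comparison, from 0.26 for Irgm2 upward, with a median of 1.02, against -0.09 over all genes. There 5 passed the size rule (Gbp8 at 1.55, or 1.37 with its Mel18-labelled value raised to the floor, Gbp3 at 1.53, Gbp7 at 1.20, Igtp at 1.18 and Iigp1 at 1.02), where 3.84% of genes were higher and 4.53% lower. In the Bmi1-labelled minus wild-type comparison none of the 9 passed. Gbp2b had opposite signs in each pair, at 7.60 for double-knockout-labelled minus Bmi1-labelled (where 4.30% of genes were higher) against -6.26 for Mel18-labelled minus wild type, and at 6.84 for double-knockout-labelled minus Mel18-labelled against -7.02 for Bmi1-labelled minus wild type. With values under the floor raised to it, these were 6.38 and -5.81 in both pairs. No replicate bears on these differences, and they were not tested.

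**Figure D3:**
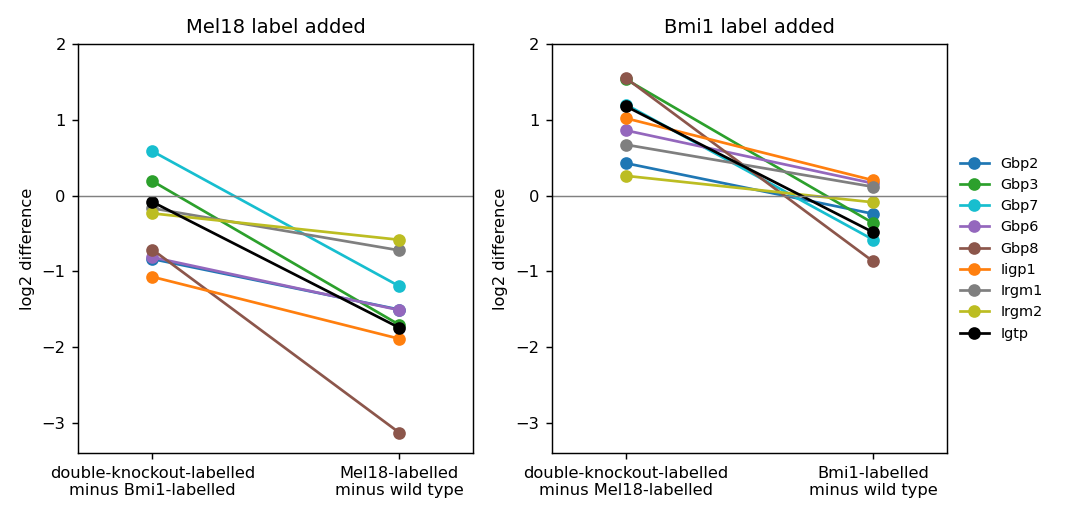
Log2 difference with the Mel18 label added (left panel) and the Bmi1 label added (right panel) in the 9 genes other than Gbp2b, each on top of the other knockout label (left points) and against wild type (right points). All 9 genes are above 0 for double-knockout-labelled minus Mel18-labelled, from 0.26 to 1.55, and below 0 for Mel18-labelled minus wild type.

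Other family members measured by probe sets with 1 symbol were Ifi47 (Irgd), Irgc1, Irgq and Gm4951, which the gene table also calls Ifgga2. The remaining members listed were not analysed here. Ifi47, an interferon-induced IRG, read 981, 419 and 892 units on the Bmi1-, Mel18- and double-knockout-labelled arrays and 1581 units on the wild-type array, the same order of arrays as Igtp. Gm4951 differed from wild type by -0.56, -2.25 and -2.33 on the Bmi1-, Mel18- and double-knockout-labelled arrays, so its double-knockout-labelled value was as low as its Mel18-labelled one. Irgq and Irgc1, relatives not known for induction by interferon, moved little, between -0.43 and 0.30 in the comparisons with wild type.

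The genes that carry the interferon gamma signal kept close to wild type. Of the 8 that reached the floor in each comparison with wild type (the receptor chains Ifngr1 and Ifngr2, the kinases Jak1 and Jak2, the transcription factors Irf1 and Irf8, and the inhibitors Socs1 and Ptpn2), none passed the size rule on any knockout array. Irf1 read 1661 units on the Mel18-labelled array against 2496 units in wild type, a log2 difference of -0.59, and Socs1 also lay at -0.59. Jak2 read 606, 690 and 1143 units on the Bmi1-, Mel18- and double-knockout-labelled arrays and 907 units in wild type. Ifng itself lay under the floor on every array, at 5.9 to 10.0 units.

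Among 19 other genes known for induction by interferon gamma, 11 were lower than wild type on the Mel18-labelled array by the size rule and none higher, with a median of -1.12. The Bmi1-labelled array had 4 lower with a median of -0.58, and the double-knockout-labelled array had 2 with a median of -0.23; none was higher on either. Over all genes 2.50% were lower on the Mel18-labelled array, 2.86% on the Bmi1-labelled and 2.19% on the double-knockout-labelled one. Ubd, a ubiquitin-like modifier, read 1294, 174 and 3245 units on the Bmi1-, Mel18- and double-knockout-labelled arrays and 2443 units in wild type, and Ido1, which degrades tryptophan, read 318, 220 and 1658 units on those arrays against 2123 units in wild type. These were the 2 lowest on the Mel18-labelled array, at -3.81 and -3.27. Ido1 was low on both single-knockout-labelled arrays and near wild type on the double-knockout-labelled one, as Gbp2b was, though it stayed above the floor throughout. Casp4, at 0.41, and Serping1, at -0.30, were the 2 highest on the Mel18-labelled array. Cxcl10 and Cxcl11, chemokines for T cells, were the 2 highest on the Bmi1-labelled array at 0.77 and 0.88, and on the Mel18-labelled array they lay at -0.70 and -0.57.

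Partners of these GTPases included 7 inflammasome genes, of which 2, 1 and 0 were lower than wild type on the Bmi1-, Mel18- and double-knockout-labelled arrays, where 2.86%, 2.50% and 2.19% of all genes were lower. Of these, Casp4 (caspase-11), Casp1 and Aim2 lay between -0.20 and 0.41 in all 3 comparisons with wild type. Gsdmd, the pore protein that caspases cut, read 836, 952 and 1850 units on the Bmi1-, Mel18- and double-knockout-labelled arrays and 1856 units in wild type, and was lower by the size rule on the Bmi1-labelled array at -1.15. Il1b was lower on both single-knockout-labelled arrays, at -3.59 and -3.17, and at -0.32 on the double-knockout-labelled one. Among 13 autophagy genes with which IRGs and GBPs are delivered to vacuoles, 1 was higher by the size rule, Calcoco1 at 1.17 on the Bmi1-labelled array, and none lower, where 5.76% of all genes were higher on that array. Their medians of 0.49, 0.48 and 0.18 on the Bmi1-, Mel18- and double-knockout-labelled arrays compare with 0.13, 0.07 and -0.01 over all genes. Atg7 and Atg5 were at 0.79 and 0.71 on the Mel18-labelled array.

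**Figure D4:**
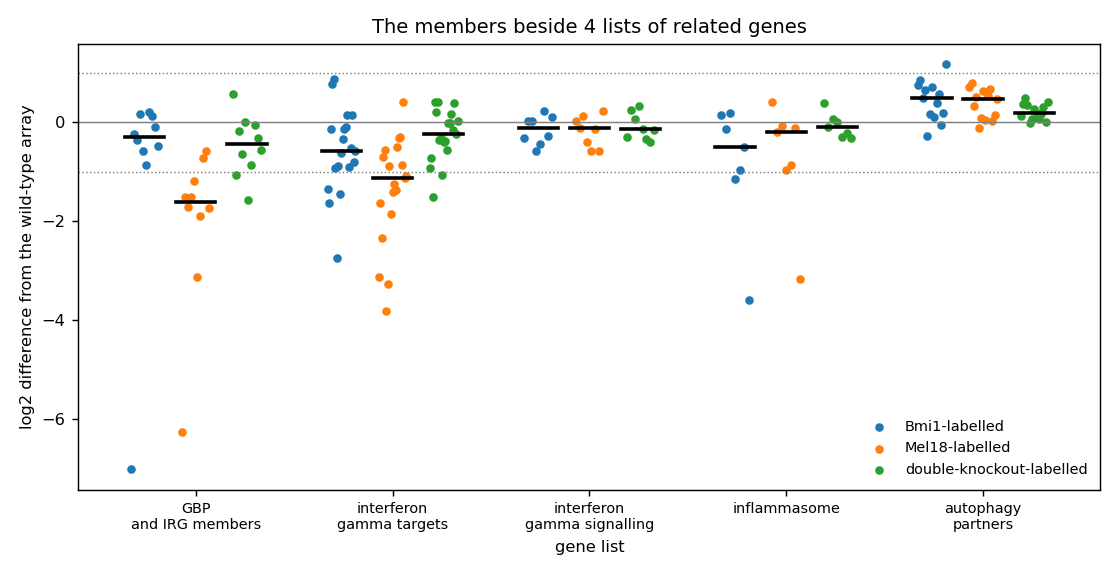
Log2 difference from the wild-type array for the 10 GTPase genes and 4 lists of related genes, 1 point per gene tested, in the order Bmi1-labelled, Mel18-labelled, double-knockout-labelled within each list, with black bars at the list median. The GTPase genes and the interferon gamma targets have medians of -1.61 and -1.12 on the Mel18-labelled array, and the signalling genes stay within 0.59 of wild type.

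Likeness to Gbp2b was measured as the Euclidean distance between log2 profiles over the 4 arrays, each centred on its own mean, among 12153 other genes that reached the floor. The 5 nearest were S100a9 at a distance of 2.39, Ppbp at 2.56, Reg3b at 2.86, S100a8 at 3.01 and Reg3g at 3.08. When the linear mean chose the probe set of a gene, a setting added after seeing the data, Xaf1 came first at 1.24, through a probe set that disagrees with its other one. S100a9 read 16.0, 52.7 and 731 units on the Bmi1-, Mel18- and double-knockout-labelled arrays and 762 units in wild type. S100a8 and S100a9, both among the neutrophil markers summed above, form calprotectin of neutrophils and inflamed epithelium, Ppbp encodes a platelet chemokine, and Reg3b and Reg3g are secreted antibacterial lectins. None of the other 9 GTPase genes came closer to Gbp2b than 6.13 (Gbp7), and the farthest, Iigp1, lay at 6.90. Profiles were not scaled to a common range. Gbp2b spanned 7.60 on the log2 scale, with 2 values under the floor, and the other 9 genes at most 3.13 (Gbp8). A gene of small range therefore lies far from Gbp2b whatever the order of its arrays, and these distances largely restate that range. To the median profile of those 9 genes the nearest of all genes were Psmb9 at 0.20, Igtp at 0.26, which is itself one of the 9, Abca13 at 0.31, Ifi47 at 0.34 and Psmb8 at 0.34. Psmb8 and Psmb9 are interferon-induced subunits of the immunoproteasome. The likeness rests on 4 arrays that share their RNA sources across genes.

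**Figure D5:**
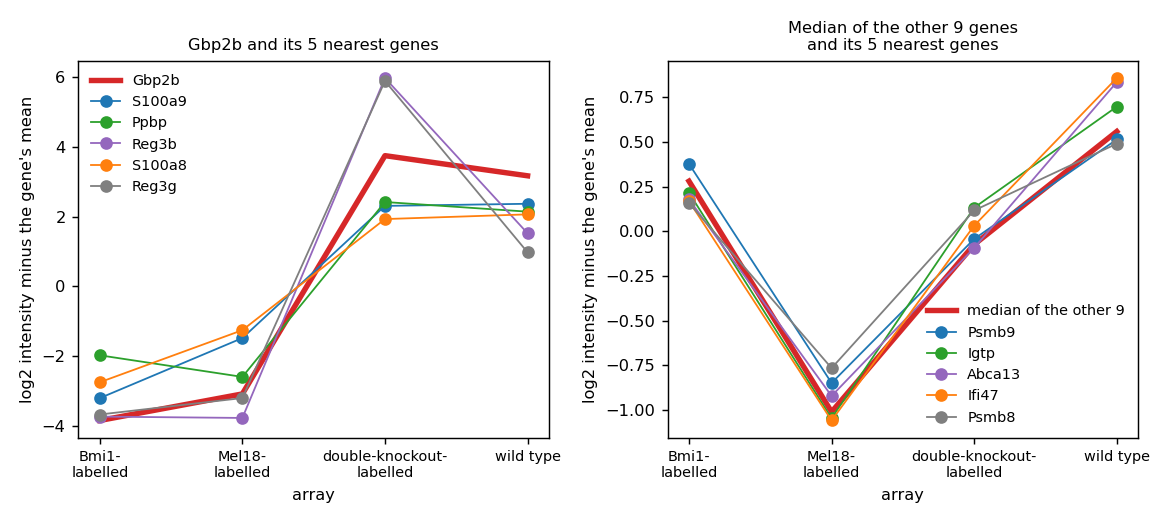
Log2 intensity minus the gene's own mean over the 4 arrays for Gbp2b and its 5 nearest genes (left) and for the median of the other 9 GTPase genes and its 5 nearest genes (right); the vertical scales differ. Gbp2b is grouped with genes low on both single-knockout-labelled arrays, and the other 9 with genes whose lowest value is on the Mel18-labelled array.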

How the data were processed

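The members and lists were chosen with earlier results of these data known. The authors deposited 1 intensity value per probe set and array. The submitters' processing notes name RMA and Affymetrix Expression Console; their versions, and whether the 4 arrays were summarised together, are not given in the sources used here. These deposited values are linear, from 3.25 to 22803, so log2 of the deposited values was taken without a pseudocount. Of 45037 probe sets, 34945 had 1 gene symbol in the platform annotation, 932 several and 9160 none. Of those with 1 symbol, 34741 matched the GRCm38.p6 gene table by gene identifier and took the symbol given there. For each of 18193 genes, the probe set of highest mean log2 stood for the gene, a choice made over the linear mean after results were seen, and 12154 reached the floor on at least 1 array. Named genes were all members, the 2 highest or 2 lowest of each list in a comparison, every measured family member, the neighbours of Gbp2b and the 5 nearest profiles; Casp1 and Xaf1 were chosen after their values were seen. No test was possible with 1 array per genotype. The script that makes the calls was tested on simulated data with known differences. Alternatives covered the choice of probe set, the floor, the fold, and scaling between arrays. Python 3.11.15, pandas 2.3.3 and numpy 2.4.6 were used.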

Additional observations from a re-analysis of the deposited data

Results flagged for a closer look

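Gbp2b was picked out because the same label went with opposite differences in 2 comparisons, past the size rule both times. The Mel18 label gave 7.60 for double-knockout-labelled minus Bmi1-labelled and -6.26 for Mel18-labelled minus wild type, and the Bmi1 label gave 6.84 for double-knockout-labelled minus Mel18-labelled and -7.02 for Bmi1-labelled minus wild type. The difference against wild type minus that on top of the other label was -13.86 on the log2 scale for either label, the same number because both use the same 4 arrays. It rests on 2 values under the floor, and with these raised to the floor it was -12.19. This difference was not tested, each side rests on 1 array per genotype, and the Bmi1 probe sets went against the labels. None of the other 9 genes passed the size rule in opposite directions for the same label. No group held enough arrays to look for an outlying sample.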

How the results depend on the processing

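Over 42 results and 9 alternative settings, 248 of 258 recomputed values stayed within 1.5 times (counts) or within 0.24 log2 units (differences). The latter is the robust SD between the closest pair of arrays. Part of this count was fixed by the settings. Centring shifted all genes of a comparison by 1 amount, which stayed below 0.24 log2 units. A gene with 1 probe set keeps its difference when probe sets are averaged. Raising values to the floor changes only genes with a value under it. The count is therefore no measure of robustness. No value past the size rule changed sign. Values under the floor raised to it gave Gbp2b differences of -5.81 from wild type on both single-knockout arrays, 6.38 for the double-knockout-labelled array against either of them, and 0 between them. The count of members lower on the Bmi1-labelled array was 2 with arrays centred on genes at or above the floor and 2 under a 1.5-fold rule (7.53% of genes lower), and on the double-knockout-labelled array 4 under the 1.5-fold rule (6.56% of genes lower). Leaving out probe sets that can match several transcripts drops Gbp3 and moved the median of the remaining genes to -0.47 for the double-knockout-labelled minus Bmi1-labelled comparison. The mean over probe sets moved Gbp6 on the double-knockout-labelled array to -0.39. Signs turned only for small differences: Gbp6, Iigp1 and Irgm1 on the Bmi1-labelled array with arrays centred on genes at or above the floor (-0.05, -0.01 and -0.10), Irgm2 there with arrays centred on their medians (0.01), and Gbp7 on the double-knockout-labelled array (at the lowest -0.06). Centring on genes at or above the floor shifted the median of all genes by -0.23 on the Bmi1-labelled and -0.16 on the Mel18-labelled array against wild type, and the share of higher among all calls from 66.8% to 40.2% and from 55.8% to 37.4%. The same centring moved that share from 35.1% to 60.1% for the double-knockout-labelled minus Bmi1-labelled comparison, from 45.9% to 61.6% against the Mel18-labelled array, and from 37.2% to 47.6% for Mel18-labelled minus Bmi1-labelled. The linear mean as the choice of probe set, and likeness over every probe set, both chosen after seeing the data, gave Gbp2b a nearest profile at a distance of 1.24, a probe set of Xaf1. Leaving out a replicate was not possible with 1 array per genotype. No paired analysis was possible because the labels carry no replicate numbers and each genotype has 1 array.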

Other observations

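Xaf1, an interferon-induced gene of cell death that was looked at after its values were seen, has 2 probe sets that disagree. One read 19.5 units on the Bmi1-labelled array, 23.6 units on the Mel18-labelled array and 1164 units on the double-knockout-labelled array, against 1496 units on the wild-type array. These values are low and high on the same arrays as Gbp2b, and at a Euclidean distance of 1.24 this was the nearest to Gbp2b among 20836 probe sets with 1 symbol. The other Xaf1 probe set, which represents the gene in the comparisons above, read 821, 474 and 853 units on the knockout arrays and 333 units in wild type, so that wild type was the lowest array rather than the highest. The second nearest probe set belonged to Reg3b, at 2.23. Where the probes of either Xaf1 probe set lie in the transcript was not analysed here.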
